A study of Homo sapiens with 6 samples.

Results

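The AP-1 transcription factor genes examined here are 10 genes: the FOS family (FOS, FOSB, FOSL1 and FOSL2), the JUN family (JUN, JUNB and JUND), ATF3, ATF2 and MAFK. Each was taken as the row with its symbol, 10 of 50550 rows in all. The study sequenced total RNA of U2OS, an established human osteosarcoma line, in 6 libraries. The 3 libraries titled Lv_LINC00673 carry the genotype label LINC00673, and the 3 titled Lv_NC carry the label NC. The series describes wild-type U2OS cells and derivatives with the long noncoding RNA LINC00673 knocked down. The labels do not explain NC, the vector, the target sequence or the number of clones, so an effect of the vector cannot be told apart from one of the knockdown. Whether the 3 libraries of either group stem from different cultures is not stated. Every p-value below therefore reflects the spread among these libraries alone, and that spread may be technical.

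AP-1 is a dimer of proteins with a basic region that grips DNA and a leucine zipper that holds the pair together. FOS proteins need a JUN partner, whereas JUN proteins can also pair among themselves, and the pairs bind the sequence TGACTCA. Pairs with ATF proteins prefer TGACGTCA, the cyclic AMP response element. FOS, FOSB, JUN, JUNB and ATF3 are immediate early genes, transcribed within minutes of a growth factor or stress signal that reaches them through MAP kinases, and their messages are short-lived. Fos is tied to bone tumours in particular, since mice that overexpress it develop osteosarcoma.

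Promoter sequences were searched for known short elements near the start sites. Of the 10 genes, 7 matched RefSeq promoter windows (GRCh38.p14), with 8 windows because ATF3 has 2, while FOSL1, ATF2 and MAFK had none. The 5 below, the 250 bases upstream of the start, are shown because they set the immediate early FOS, FOSB, JUN and JUNB beside JUND, whose change was smaller. They lie, in the order printed and each 5′ to 3′ on its gene's strand, at chr14:75278578-75278827 (plus), chr19:45467746-45467995 (plus), chr1:58784048-58784297 (minus), chr19:12791236-12791485 (plus) and chr19:18281623-18281872 (minus). Capitals mark matches on either strand to the short element TGACGT, the longer element TGACNTCA, the box CCAAT and the box TATAAA.
FOS: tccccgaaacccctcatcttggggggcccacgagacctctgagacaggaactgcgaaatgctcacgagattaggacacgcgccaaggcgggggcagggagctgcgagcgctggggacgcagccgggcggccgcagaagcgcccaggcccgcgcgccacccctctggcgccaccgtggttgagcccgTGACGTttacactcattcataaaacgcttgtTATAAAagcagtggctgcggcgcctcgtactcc
FOSB: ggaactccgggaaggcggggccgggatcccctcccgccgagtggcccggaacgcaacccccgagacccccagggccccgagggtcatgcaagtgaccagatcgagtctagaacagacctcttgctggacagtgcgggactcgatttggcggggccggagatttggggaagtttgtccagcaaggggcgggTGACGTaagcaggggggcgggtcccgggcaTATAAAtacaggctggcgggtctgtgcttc
JUN: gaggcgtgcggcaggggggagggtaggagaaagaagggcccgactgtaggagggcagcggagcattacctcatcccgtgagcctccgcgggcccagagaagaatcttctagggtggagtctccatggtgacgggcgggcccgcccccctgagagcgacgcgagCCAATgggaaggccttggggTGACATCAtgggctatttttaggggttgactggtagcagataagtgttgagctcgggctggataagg
JUNB: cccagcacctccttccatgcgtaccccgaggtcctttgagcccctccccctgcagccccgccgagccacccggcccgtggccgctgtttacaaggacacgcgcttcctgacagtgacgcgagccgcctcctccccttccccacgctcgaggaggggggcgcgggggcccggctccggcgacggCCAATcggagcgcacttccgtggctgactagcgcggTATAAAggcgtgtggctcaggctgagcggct
JUND: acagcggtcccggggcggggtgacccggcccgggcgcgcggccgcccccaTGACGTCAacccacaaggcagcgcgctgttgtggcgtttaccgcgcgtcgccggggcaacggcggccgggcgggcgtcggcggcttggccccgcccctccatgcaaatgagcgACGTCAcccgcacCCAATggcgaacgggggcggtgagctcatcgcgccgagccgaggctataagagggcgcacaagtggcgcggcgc

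TATAAA stood 33, 30 and 31 bases upstream of the start in FOS, FOSB and JUNB, and 230 bases upstream of the second ATF3 start. These are 4 of the 8 windows, against 10.7% of 35116 RefSeq windows of this length. TGACGT stood 64 bases upstream in FOS, 60 in FOSB and 66 in FOSL2, and in 4 of the 8 windows against 7.1% of all. JUN has TGACATCA 67 bases upstream and ATF3 has it 123 bases upstream, while JUND has TGACGTCA 200 bases upstream. These fall under TGACNTCA, held by 3 of the 8 windows against 6.87% of all, and the JUND match also contains TGACGT on each strand. CCAAT, searched on both strands, was in 4 windows against 32% of all, and GGGCGG, the letters of the GC box, in 6 against 42.6% of all. No element searched was in all 5 windows printed, and JUND shares TGACGT with FOS and FOSB and CCAAT with JUN and JUNB. TGACTCA (4.2% of all windows) and the CArG box (1.16%) were in none of the 8, which says only that these letters are not in these windows.

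Total counts were 61815841 to 71237493 in the Lv_LINC00673 libraries and 76814723 to 87227980 in Lv_NC. The targeted RNA was only modestly lower in the libraries labelled Lv_LINC00673. LINC00673 stood at 6.55, 6.23 and 6.38 CPM there against 9.16, 9.27 and 7.08 CPM in Lv_NC, and did not pass edgeR's quasi-likelihood test (adjusted p = 0.0924, and 0.0429 to 0.353 over 16 alternatives), so directions below are those between library labels. Its deposited FPKM overlapped, at 2.82, 2.73 and 2.80 against 3.53, 3.46 and 2.75. CPM are counts scaled to library size with TMM factors, which level out differences in composition. The deposited FPKM are divided by gene length but follow plain shares of counts, without TMM factors. For JUN, the ratio of FPKM to share of counts varied by 0.429% over the libraries. The TMM factors were 1.03 to 1.08 in Lv_LINC00673 and 0.929 to 0.954 in Lv_NC, so FPKM and CPM comparisons differ in scale between the groups. Library numbers run 1 to 3 in each group. The libraries expressed mesenchymal genes, with vimentin (VIM) at 955 to 1458 FPKM, but of 12 mesenchymal and bone markers, SP7, BGLAP, IBSP and COL1A2 were under 1 CPM in every library. Of the 8 that were tested, VIM, FN1 and the bone markers RUNX2 and ALPL were higher in Lv_LINC00673 (log2 fold changes 0.34, 1.52, 1.25 and 0.50), SPARC was lower (-0.36) and 3 did not pass. The list's summed level was 1698.0 to 1833.5 FPKM in Lv_LINC00673 and 1255.9 to 1362.5 FPKM in Lv_NC, and its part in the results below was not tested. Of 15 markers of blood, endothelial, epithelial, liver, neural and muscle cells, 11 were under 1 CPM throughout, and the list's summed level was 2.95 to 3.49 FPKM in Lv_LINC00673 and 2.13 to 2.69 FPKM in Lv_NC.

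Most AP-1 genes were lower in Lv_LINC00673. JUN, FOS, FOSB and ATF3 stood at 46.5%, 45.7%, 50% and 52.3% of their Lv_NC levels, and JUNB at 56%. FOSL1 and FOSL2 fell less, to 71.3% and 80.7%. ATF2 went the other way, to 178%. JUND and MAFK did not pass the test. In RNA from whole cultures, fewer cells that transcribe a gene and less RNA per cell cannot be told apart. All 10 genes passed the filter on low counts. Of the 10, 7 fell and 1 rose at an adjusted p of 0.05, where 12.5% of the 21933 genes tested fell and 14.3% rose. At least a 2-fold fall that also passed was found for 3 members, FOS, FOSB and JUN, against 0.821% of all genes tested. All 3 lay close to that cut-off, and their place beyond it depended on the processing. Scaled by library totals alone, their log2 fold changes were -0.96, -0.83 and -0.94, short of 2-fold. Limma on log2(FPKM + 1) gave -0.89, -0.46 and -0.94. Values adjusted for base composition and transcript length were -0.81, -0.78 and -0.88, short of it as well. DESeq2 kept all 3 past it (-1.16, -1.03 and -1.13). The median log2 fold change was -0.66 over the 10 genes and 0.05 over all genes tested. With library totals in place of TMM factors, which shifts the median of all genes by 0.17, 6 members fell and 1 rose (background 5.58% lower and 18.5% higher), and 76.8% of all calls were higher against 53.5% with TMM factors. In CPM, the groups did not overlap at 7 members that were lower and 1 that was higher, against 21.4% and 23.7% of all genes tested.

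**Figure D1:**
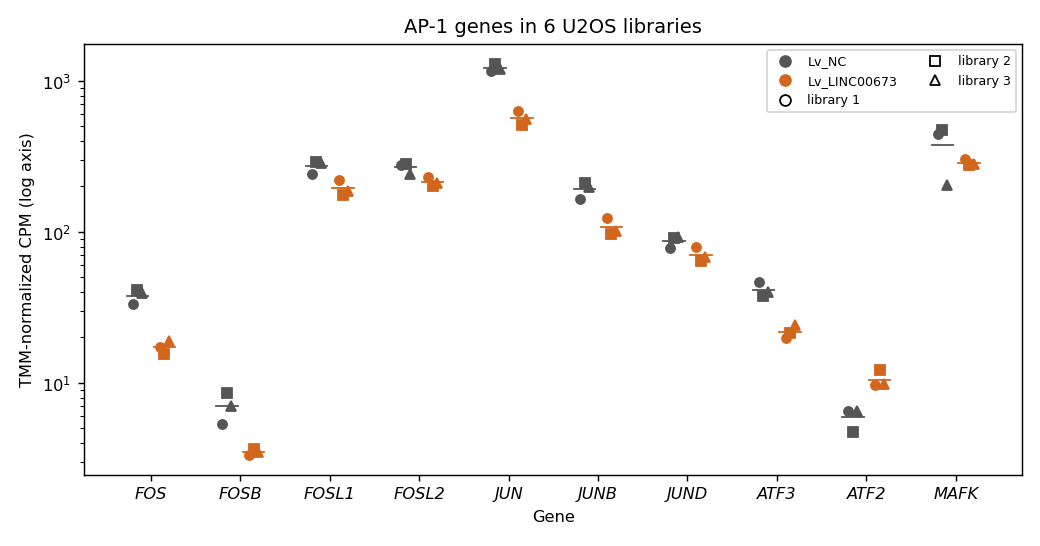
TMM-normalized CPM (log axis) of the 10 AP-1 genes, with 1 point per library, symbol shape for the library number and a bar at each group's mean (n = 3). JUN lies highest in both groups. The groups overlap only for JUND and MAFK. ATF2 is higher in Lv_LINC00673, and FOS, FOSB, FOSL1, FOSL2, JUN, JUNB and ATF3 are lower, with narrow gaps for FOSL1 and FOSL2. For MAFK, 1 Lv_NC library lies at 203 CPM, below all other libraries of that gene.

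The JUN family carries the proteins that every AP-1 dimer of the FOS type needs. JUN, the strongest activator of the family (chr1:58780791-58784047), stood at 631, 513 and 563 CPM in Lv_LINC00673 libraries 1 to 3 and at 1158, 1302 and 1206 CPM in Lv_NC. The lowest Lv_NC library was thus well above the highest Lv_LINC00673 library. The log2 fold change was -1.10 (SE 0.10, 95% interval -1.32 to -0.88, adjusted p = 0.00132), lower in 3 of 3 libraries. It passed under all 17 alternatives, at -1.20 to -0.88.

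JUNB (chr19:12791486-12793315), which pairs like JUN but is a weaker activator and can hold JUN's activity back, stood at 123, 97.2 and 102 CPM against 166, 211 and 198 CPM. Its groups did not overlap either, with library 1 the highest in Lv_LINC00673 and the lowest in Lv_NC. The log2 fold change was -0.84 (SE 0.13, adjusted p = 0.00488) and passed under all 17 alternatives. HOOK2 is annotated across JUNB on the other strand. HOOK2 had 23.2 to 30.4 CPM over the 6 libraries and did not pass (log2 fold change -0.13, adjusted p = 0.516). The labels do not give the strand setting of the counting, so reads of the shared stretch cannot be told apart.

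JUND (chr19:18279694-18281622), the member present in resting cells, stood at 78.9, 64.3 and 67.9 CPM in Lv_LINC00673 and at 78.8, 91.0 and 92.9 CPM in Lv_NC. Library 1 of each group had nearly the same level, so the groups touched. The log2 fold change was -0.32 (SE 0.11, 95% interval -0.57 to -0.06) with an adjusted p of 0.064, which misses the threshold and does not show that JUND stayed level. It passed under 3 of 17 alternatives. These were the fits without Lv_LINC00673 library 1 or Lv_NC library 1 (log2 fold change -0.42, adjusted p = 0.0232, and -0.39, adjusted p = 0.0441), and DESeq2 with all libraries (-0.34, adjusted p = 0.0417).

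Among the FOS genes, FOS and FOSB encode full-length activators, and FOSL1 and FOSL2 encode FRA-1 and FRA-2, which lack the strong C-terminal activation domain. FOS (chr14:75278828-75282230) stood at 17.4, 15.6 and 18.9 CPM in Lv_LINC00673 and at 33.2, 41.3 and 39.2 CPM in Lv_NC. No Lv_LINC00673 library reached the lowest Lv_NC library. The log2 fold change was -1.13 (SE 0.13, 95% interval -1.43 to -0.83, adjusted p = 0.00297), and it passed under all 17 alternatives at -1.22 to -0.81.

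FOSB (chr19:45467996-45475179) was the least abundant FOS gene, at 243, 246 and 237 counts in Lv_LINC00673 and 413, 698 and 510 counts in Lv_NC. The Lv_NC libraries varied widely but stayed above all Lv_LINC00673 libraries. In CPM it fell from 6.98 ± 1.64 to 3.49 ± 0.177 (SD, n = 3; log2 fold change -1.0, SE 0.20, adjusted p = 0.0103). It passed under 16 of 17 alternatives and missed with a block for library number (log2 fold change -0.97, adjusted p = 0.051). Gene-level counts do not separate full-length FOSB from its short splice form, deltaFosB. In GENCODE 29 the DNA repair gene ERCC1 overlaps FOSB on the other strand. ERCC1 had 12263 to 24389 counts per library and was itself lower (log2 fold change -0.55, SE 0.11, adjusted p = 0.00961). How many FOSB counts come from ERCC1 reads was not tested.

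FOSL1 (chr11:65892049-65900545), the most abundant FOS gene per length (FPKM), stood at 221, 176 and 187 CPM in Lv_LINC00673 and at 241, 292 and 287 CPM in Lv_NC. The groups did not overlap, but came close at library 1 of each. Its log2 fold change of -0.49 (SE 0.12, adjusted p = 0.0171) passed under 9 of 17 alternatives. FOSL2 (chr2:28392858-28417317) stood at 233, 202 and 212 CPM against 278, 280 and 243 CPM, again without overlap but with a narrow gap. Its log2 fold change was -0.31 (SE 0.09, adjusted p = 0.0397), it passed under 7 of 17 alternatives, and its deposited FPKM values overlapped between the groups. FOSL1 lost its call on leaving out Lv_LINC00673 library 2, Lv_LINC00673 library 3, Lv_NC library 2 and Lv_NC library 3 in turn (adjusted p = 0.0645, 0.0704, 0.0505 and 0.068). FOSL2 lost its call on leaving out any of those 4 libraries (adjusted p = 0.116, 0.12, 0.119 and 0.0511) or Lv_NC library 1 (adjusted p = 0.0955).

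The other 3 genes pair with JUN, FOS or other zipper proteins. ATF3 (chr1:212565407-212620777), a stress-induced factor that represses many promoters as a homodimer, stood at 19.7, 21.5 and 24.0 CPM in Lv_LINC00673 and at 46.9, 37.6 and 40.1 CPM in Lv_NC. All Lv_LINC00673 libraries were well below all Lv_NC libraries. The log2 fold change was -0.93 (SE 0.13, adjusted p = 0.0044), and it passed under all 17 alternatives. The ratio of its FPKM to its share of counts varied by 8.58% over the libraries, the widest spread of the 10 genes. The 2 annotated start sites of ATF3 were not separated in these counts.

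ATF2 (chr2:175072259-175168203), which is activated by JNK and p38 kinases and pairs with JUN on TGACGTCA, was the only member to rise. It stood at 9.64, 12.1 and 9.86 CPM in Lv_LINC00673 and at 6.53, 4.73 and 6.49 CPM in Lv_NC. Every Lv_LINC00673 library was above every Lv_NC library. The log2 fold change was 0.83 (SE 0.19, 95% interval 0.41 to 1.26, adjusted p = 0.0139). ATF2 passed under 14 of 17 alternatives. The call was lost without Lv_LINC00673 library 2 (log2 fold change 0.71, adjusted p = 0.0566). It was also lost with a block for library number (0.84, adjusted p = 0.0726) and with the adjustment for base composition and length (0.33, adjusted p = 0.0837).

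MAFK (chr7:1530702-1543043) encodes a small MAF protein, which has a zipper but no activation domain and pairs with NRF2 or BACH1. It stood at 304, 276 and 282 CPM in Lv_LINC00673, a narrow range, and at 447, 471 and 203 CPM in Lv_NC. Lv_NC library 3 was below all other libraries, while Lv_NC libraries 1 and 2 were above all of Lv_LINC00673. The deposited FPKM showed the same order, with 122, 125 and 56.4 in Lv_NC and 85.9 to 90.4 in Lv_LINC00673. With all libraries the log2 fold change was -0.38 (SE 0.29, 95% interval -1.07 to 0.31, adjusted p = 0.38). Without Lv_NC library 3 it was -0.68 (adjusted p = 0.0246), the only 1 of 17 alternatives under which MAFK passed. The highest Lv_NC library of MAFK was 2.32 times the lowest, against a median of 1.19 over 9509 genes of at least 10 CPM, and 1.36% of those genes had a ratio at least as large. TMEM184A and LOC100128653, annotated across part of MAFK, did not share this drop, at 51.6, 55.3 and 53.0 CPM and at 7.80, 8.69 and 8.05 CPM in Lv_NC libraries 1 to 3.

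Fold changes in these libraries followed the base composition and length of genes, and the members differ in both. Spearman's rho of the fold change over 11123 genes with a mean log2 CPM above 2 was -0.51 with GC content and 0.44 with transcript length, as a description, since genes are not replicates. By the longest GENCODE transcript, ATF2 has 36.9% GC and JUND 69.7%, at percentiles 4 and 99.7 of those genes, while ATF3 has 46.7% and FOS 52.6%. Offsets that remove each library's trend with GC content and length left FOS, FOSB, JUN, JUNB and ATF3 lower, with log2 fold changes of -0.81, -0.78, -0.88, -0.47 and -0.82 (adjusted p = 0.000783, 0.0104, 2.27e-05, 0.00121 and 0.000591). FOSL2 was lower as well (-0.35, adjusted p = 0.00417). The values of FOSL1, JUND and ATF2 moved to -0.07, -0.06 and 0.33 (adjusted p = 0.406, 0.558 and 0.0837), so the calls of FOSL1 and ATF2 ended with the offset. Of the 10 members, 6 fell and 0 rose in this fit, where 15.4% of the 16897 genes tested fell and 17% rose.

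**Figure D2:**
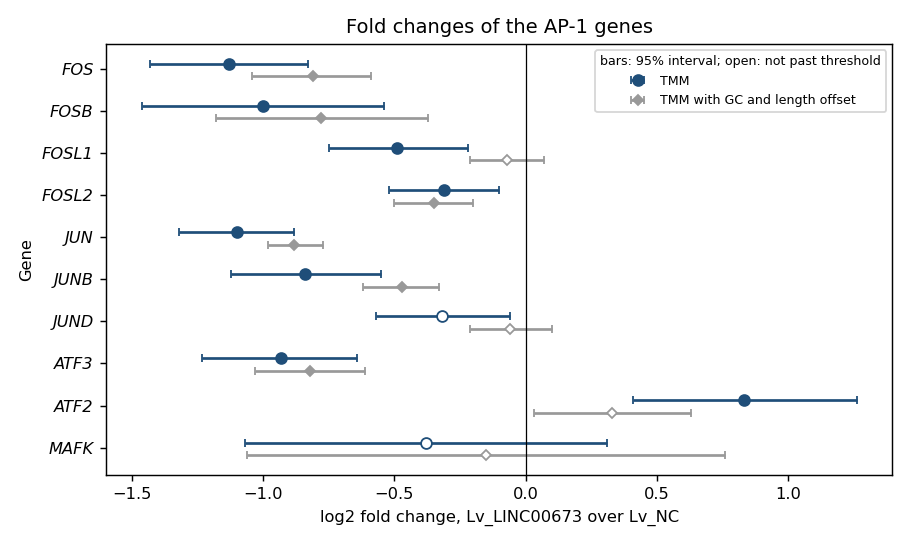
Log2 fold change of Lv_LINC00673 over Lv_NC for each AP-1 gene (n = 3 libraries per group), by edgeR with TMM factors (circles) and with an added GC and length offset (diamonds), each with its 95% interval; open symbols did not pass an adjusted p of 0.05. JUN stays at -0.88 and ATF3 at -0.82 with the offset, while FOSL1 moves from -0.49 to -0.07 and ATF2 from 0.83 to 0.33.

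Levels between genes were compared per length, in the deposited FPKM. In Lv_NC the order was JUN at 341 ± 15.3 FPKM, FOSL1 at 148 ± 14.0, MAFK at 101 ± 38.9, JUNB at 95.2 ± 10.5, JUND at 41.3 ± 3.31, FOSL2 at 37.0 ± 2.63, ATF3 at 18.2 ± 2.71, FOS at 16.4 ± 1.62, FOSB at 1.69 ± 0.358 and ATF2 at 1.32 ± 0.224 (SD, n = 3). The libraries of MAFK and JUNB, of JUND and FOSL2, of ATF3 and FOS, and of FOSB and ATF2 overlapped, so the order within those pairs is not resolved. In Lv_LINC00673 the order was the same except at its foot, where ATF2 (2.60 ± 0.421 FPKM) stood above FOSB (0.947 ± 0.0699 FPKM) without overlap. JUN was then at 177 ± 13.6 FPKM and FOSL1 at 118 ± 11.0 FPKM.

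The summed level of the JUN family was 298, 254 and 271 FPKM in Lv_LINC00673 and 448, 503 and 481 FPKM in Lv_NC, and that of the FOS family 175, 151 and 158 FPKM against 186, 214 and 209 FPKM. Both sums were lower in 3 of 3 libraries, to 0.574 and 0.795 of the Lv_NC mean. Summed CPM, which carry TMM factors and are not divided by length, gave 0.497 and 0.737. The ratio of FOS family to JUN family was 0.588, 0.594 and 0.584 against 0.416, 0.425 and 0.434. It was thus higher in every Lv_LINC00673 library, with spreads within each group far smaller than the gap. For each of these 3 values the two-sided exact permutation p was 0.10, the smallest that 3 libraries against 3 can give.

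Shares within the families moved unevenly. JUN held 64.8 ± 0.701% of the JUN family's FPKM in Lv_LINC00673 and 71.5 ± 1.39% in Lv_NC (SD, n = 3), JUND 13.5 ± 0.172% and 8.64 ± 0.436%, and JUNB 21.7 ± 0.569% and 19.9 ± 1.12%. FOS held 5.21 ± 0.581% and 8.05 ± 0.23% of the FOS family. FOSL1 held 73.2 ± 1.16% and 72.8 ± 2.06%, with overlapping libraries. Pairs of genes within a family were compared by their FPKM ratio in each library. JUN to JUND was 4.74, 4.72 and 4.92 in Lv_LINC00673 and 8.71, 8.48 and 7.69 in Lv_NC, and FOS to FOSL1 was 0.0626, 0.0705 and 0.0804 against 0.110, 0.112 and 0.109. FOSB to FOS was 0.107, 0.131 and 0.104 against 0.0913, 0.116 and 0.0998, with overlap. Of 9 pairs, 7 had no overlap between groups, each with a two-sided exact permutation p of 0.10 (0.129 after Benjamini-Hochberg adjustment over the 9). The exceptions were FOSL1 to FOSL2 and FOSB to FOS (exact permutation p = 0.3 and 0.4). The 9 ratios reuse the same few genes and are not independent. How often ratios of other gene pairs separate the groups was not tested.

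**Figure D3:**
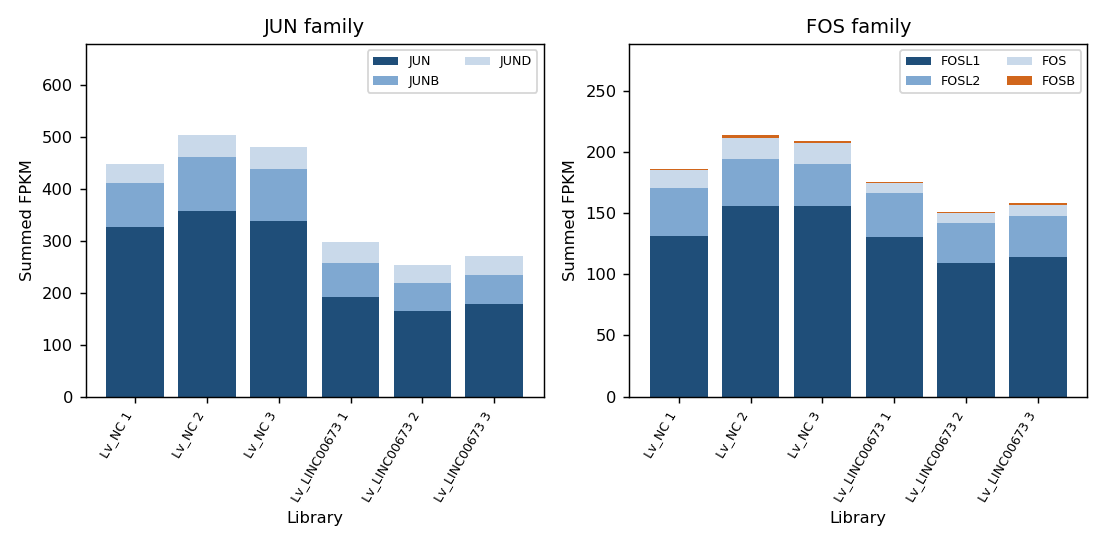
Summed deposited FPKM per library of the JUN family (left) and the FOS family (right), stacked by gene, with Lv_NC libraries first. JUN makes up most of the left bars and accounts for most of their drop from 448 to 503 FPKM in Lv_NC to 254 to 298 FPKM in Lv_LINC00673, and FOSL1 makes up most of the right bars, while FOSB is barely visible.

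The 5 lists of genes around AP-1 were read against the same background of 12.5% lower and 14.3% higher. For their counts with the offset, the background was 15.4% lower and 17% higher. Calls among all genes also changed when 1 library was left out. Without Lv_LINC00673 library 2 or 3 they were 1263 and 1172 lower and 1453 and 1658 higher, of 22670 and 22634 tested. Without Lv_NC library 2 or 3 they were 1531 and 1335 lower and 2100 and 1578 higher, of 22935 and 22863. Without library 1 of Lv_LINC00673 or Lv_NC they were 3269 and 2359 lower and 3221 and 3254 higher, of 22745 and 22847. Of 23 other zipper factors tested, 6 fell and 3 rose (median log2 fold change -0.13), and with the offset 9 fell and 3 rose. The stress factor gene DDIT3 fell from 47.1 ± 14.0 to 24.0 ± 2.69 CPM (SD, n = 3), and MAFF, a small MAF gene like MAFK, from 171 ± 9.31 to 96.5 ± 7.02 CPM. A further small MAF gene, MAFG, fell as well (log2 fold change -0.51, SE 0.09, adjusted p = 0.00666). NFE2L2, encoding the small MAF partner NRF2, rose from 12.9 ± 3.20 to 28.0 ± 3.77 CPM, and BACH1, encoding a repressive partner of small MAF proteins, from 11.1 ± 3.18 to 24.5 ± 6.73 CPM. With the offset the log2 fold change of NFE2L2 was 1.11 and that of BACH1 went from 1.14 to 0.53. The offset ended the call of DDIT3 (log2 fold change -0.64, adjusted p = 0.0567), which was also lost without Lv_LINC00673 library 2 (adjusted p = 0.053), and BACH1 lost its call without Lv_LINC00673 library 2 or 3 or Lv_NC library 3 (adjusted p = 0.0554, 0.0507 and 0.062).

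Of 24 MAP kinase cascade genes, which carry the signals that induce AP-1, 6 fell and 5 rose (median log2 fold change -0.17). MAP2K3, encoding a kinase that activates p38, fell from 247 ± 13.6 to 152 ± 9.94 CPM, and MAPKAPK2, encoding a kinase downstream of p38, from 152 ± 5.15 to 108 ± 7.72 CPM. MAP2K4, encoding a kinase that activates JNK, rose from 6.98 ± 1.28 to 13.9 ± 1.58 CPM, and MAP3K1, encoding a kinase above it, from 2.94 ± 0.913 to 5.73 ± 1.41 CPM. With the offset 5 fell and 1 rose, and MAP3K1 no longer passed (log2 fold change 0.46, adjusted p = 0.0828). The fall of MAP2K3 was -0.70 without the offset and -0.36 with it, and MAPKAPK2 moved from -0.48 to -0.20. MAP3K1 also lost its call without Lv_LINC00673 library 2 or 3 or Lv_NC library 2 or 3 (adjusted p = 0.123, 0.0786, 0.0793 and 0.0975), and the list's counts without 1 of these 4 libraries were 3 lower and 2 or 3 higher.

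Of 15 SRF, MEF2 and CREB regulators, the factors that act on FOS and JUN promoters, 2 fell and 6 rose (median log2 fold change 0.27). SRF, which binds the serum response element of FOS, fell from 150 ± 16.4 to 84.0 ± 10.2 CPM, and MEF2D, encoding a factor that binds the JUN promoter, from 202 ± 16.9 to 153 ± 12.3 CPM. MRTFB, encoding an SRF coactivator, rose from 5.94 ± 1.17 to 16.2 ± 4.17 CPM, and the acetyltransferase gene EP300 from 29.3 ± 2.25 to 69.6 ± 6.52 CPM. With the offset 2 fell and 2 rose, with log2 fold changes of -0.66 for SRF and 0.94 and 1.05 for MRTFB and EP300, against -0.83, 1.45 and 1.25 without it. MEF2D lost its call without Lv_LINC00673 library 2 or 3 or Lv_NC library 2 or 3 (adjusted p = 0.0735, 0.0775, 0.0671 and 0.0758) and with library totals alone (0.0735). Without each of those 4 libraries 1 gene of the list fell and 2 or 3 rose.

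Of 17 genes of message decay and protein turnover, 1 fell and 6 rose (median log2 fold change 0.17). The gene that fell was ZFP36, encoding tristetraprolin, which speeds the decay of AU-rich messages such as that of FOS and is itself an immediate early gene, from 37.8 ± 7.24 to 19.7 ± 4.29 CPM. XRN1, the 5' to 3' exonuclease gene, rose from 3.78 ± 1.01 to 9.48 ± 2.19 CPM, and CNOT1, the scaffold gene of the deadenylase complex, from 32.2 ± 8.70 to 77.1 ± 14.5 CPM. With the offset 3 fell and 5 rose, and the log2 fold changes of XRN1 and CNOT1 went from 1.33 and 1.26 to 0.50 and 0.84. Without library 2 or 3 of Lv_LINC00673, or library 3 of Lv_NC, 3 rose, and without library 1 of either group 2 fell.

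Of 34 genes known as AP-1 targets, 18 fell and 2 rose (median log2 fold change -0.31). The phosphatase gene DUSP1 fell from 694 ± 27.5 to 175 ± 16.2 CPM and HBEGF, encoding a ligand of the EGF receptor, from 78.7 ± 3.04 to 39.4 ± 0.899 CPM. The 2 that rose were collagenase genes, MMP1 from 3.24 ± 0.787 to 6.65 ± 1.27 CPM and MMP13, chosen after its values were seen, from 0.0916 to 0.396 CPM on average. MMP3, a stromelysin gene named on the same terms, fell from 408 to 214 CPM. CCND1, PLAU and TNC did not pass (log2 fold changes 0.07, 0.09 and -0.03). With the offset 14 fell and 2 rose, which were MMP1 and PLAU (log2 fold changes 0.99 and 0.38), while MMP13 did not pass (adjusted p = 0.0754). Leaving out library 3 of Lv_LINC00673 or of Lv_NC left 10 or 11 lower and 0 higher, and MMP1 lost its call (adjusted p = 0.0574 and 0.0563). Leaving out Lv_LINC00673 library 1 or 2 or Lv_NC library 2 left 1 higher.

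**Figure D4:**
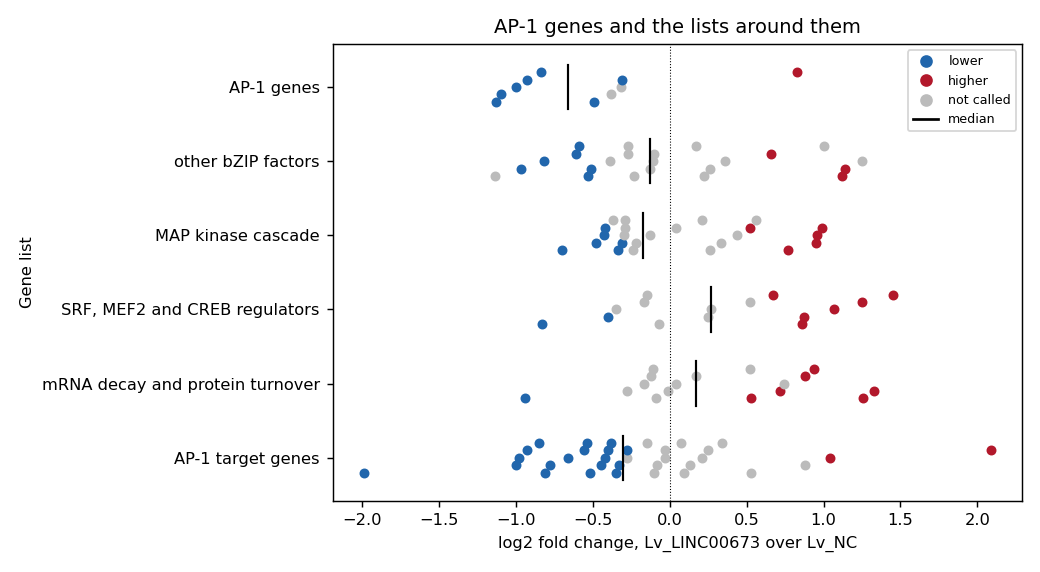
Log2 fold change of Lv_LINC00673 over Lv_NC for each tested gene of the AP-1 genes and 5 lists around them, coloured by whether it was lower, higher or not past an adjusted p of 0.05 (edgeR, n = 3 per group); vertical positions within a row only separate points, and the black line is the list's median. The medians run from -0.66 for the AP-1 genes to 0.27 for the SRF, MEF2 and CREB regulators.

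Over the 6 libraries, the genes whose log2 CPM was most like that of JUN among 9509 genes of at least 10 CPM included BMP6 and VPS26C (Pearson r = 0.999 each). For FOS they were ABHD17A, TNFRSF10B and BICD2 (r = 0.998 each), and for ATF3 MYL12A, OTUD1 and PRPS1 (r = 0.999, 0.999 and 0.998). These values describe 6 points that share the same 2 groups and libraries. The log2 fold changes of the genes named here were smaller than those of the members they follow, from -0.87 for PRPS1 to -0.33 for ABHD17A.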

How the data were processed

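The authors deposited raw read counts per gene and FPKM values per gene, 1 column per library; all columns were matched by name (0 unmatched). The genome build was hg38, per the submitters' processing notes. For the aligner, counter, annotation, strand setting and FPKM length model, nothing is stated in those notes or the labels. Rows without a symbol held 3.22 to 4.26% of counts and stayed in the fit. Coordinates are 1-based, from RefSeq GRCh38.p14.

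The test was edgeR 4.0.16's quasi-likelihood test (robust, two-sided; R 4.3.3) on counts that passed filterByExpr, with TMM factors; p-values were adjusted over 21933 genes (Benjamini-Hochberg) and called at 0.05. SE is the log2 fold change over the square root of F, and intervals are at 95%. The offset fit used smooths (mgcv 1.9.3) of GC content and length of the longest GENCODE 29 transcript, known for 80.8% of 20914 tested rows with symbols. The other alternatives were RLE, upper-quartile or no factors, other filters, DESeq2 1.42.0, limma-voom (limma 3.58.1), limma on the authors' FPKM as log2(FPKM + 1) or log2(FPKM + 0.1), a replicate block, and leaving out each library. The script was tested on simulated data that held no trend with GC content or length, so that run does not bear on calls under such a trend. Replicates of a group differed by more than sampling noise (chi-square per degree of freedom 36.7 to 73.6).

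The members, lists and motifs were chosen with earlier results of these data known. Named genes were LINC00673, the 10 members, up to 2 lowest and 2 highest called genes of at least 1 CPM in each of the 5 lists, and the 3 genes most like FOS, JUN and ATF3, of which 1 is not reported here. Other names (MAFG, MMP3, MMP13, CCND1, PLAU, TNC and overlapping genes) were chosen after their values were seen.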

Additional observations from a re-analysis of the deposited data

How the results depend on the processing

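Directions of the 10 members and 18 other named genes, and of LINC00673, held under every alternative run; of 492 values under alternatives, 435 kept their side of the threshold, 52 lost a call and 5 gained one. The 7 lower members ranged from 5 to 8 and the 1 higher from 0 to 1 when 1 library was left out. Lower and higher calls among all genes (2738 and 3145) then ranged from 1172 to 3269 and from 1453 to 3254, with fewest lower calls without Lv_LINC00673 library 3 and fewest higher calls without Lv_LINC00673 library 2. For the zipper factors these were 4 to 7 and 2 to 3, for MAP kinase genes 3 to 9 and 2 to 6, for SRF, MEF2 and CREB regulators 1 to 3 and 2 to 6, for decay genes 1 to 2 and 3 to 7, and for AP-1 targets 10 to 19 and 0 to 2. The JUN family sum, as a share of Lv_NC, ranged from 0.549 to 0.595, the FOS family sum from 0.760 to 0.821 and their ratio from 1.37 to 1.40, and summed CPM in place of FPKM gave 0.497 for the JUN family and 1.48 for the ratio.

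Same-numbered libraries did not deviate together (correlations -0.42, -0.36 and 0.04 over 12349 genes), and libraries of unlike number had correlations of -0.14 to 0.45. Deviations from a mean of 3 libraries are not independent, so these values cannot show whether the numbers mark pairs. A replicate block called 408 genes lower and 800 higher, and 4 members lower and 0 higher. In that order it called 2 and 1 zipper factors, 1 and 0 MAP kinase genes, 1 and 2 SRF, MEF2 and CREB regulators, 0 and 1 decay genes and 9 and 0 AP-1 targets. Library totals alone gave 1224 genes lower, 3 MAP kinase genes and 1 SRF, MEF2 and CREB regulator lower, and 4 AP-1 targets higher. The FPKM values gave 1220 (pseudocount 1) and 1244 (pseudocount 0.1) genes lower, and with either pseudocount 2 MAP kinase genes, 1 SRF, MEF2 and CREB regulator and 10 AP-1 targets lower. The GC and length offset gave 0 members higher, 1 MAP kinase gene and 2 SRF, MEF2 and CREB regulators higher, and 3 decay genes lower. No filter, a filter of 1 CPM in 3 libraries and limma-voom each gave 1 AP-1 target higher. The cause of these shifts was not tested.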

Other observations

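CEBPB and ZFP36L1 varied widely between libraries of 1 group, and were picked out after their values were seen. CEBPB, encoding a zipper factor of inflammation and differentiation, had 824 counts in Lv_LINC00673 library 1 against 7476 and 8486 in libraries 2 and 3, and 13309, 15653 and 13036 in Lv_NC. Its log2 fold change was -1.14 with an SE of 0.86 (edgeR adjusted p = 0.394). ZFP36L1, a relative of ZFP36, stood at 66.8 CPM in Lv_LINC00673 library 1 and at 251 and 271 CPM in libraries 2 and 3, against 102, 153 and 96.8 CPM in Lv_NC. Together with MAFK and the kinase gene RPS6KA1, these were the listed genes of at least 10 CPM with a 2-fold or wider spread within a group. Of 9509 genes of that level, 20 to 31 per library were at or below 1 part in 2 of both other libraries of their group.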
